A study of Mus musculus with 16 samples.

Results

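The genes described here are 10 markers of the pericentral liver zone and of Wnt signalling: Cyp2e1, Cyp1a2, Avpr1a, Axin2, Lgr5, Tbx3, Rnf43, Slc1a2, Lhpp and Rgn. They were taken from the deposited count table by symbol, 10 of 40324 distinct symbols, and all 10 passed the filter on low counts that left 14476 genes for testing. The table holds liver RNA of db/db mice, a strain that lacks a working leptin receptor and becomes obese and diabetic. All mice were db/db littermates that received adeno-associated virus 8 at about 5 weeks of age and were 10 weeks old when liver was sampled, 5 weeks after the virus. In the GFP group the vector carried the green fluorescent protein (8 libraries). In the arcA group it carried arcA (8 libraries), which the labels call overexpression without saying what arcA encodes. Neither the promoter of the vectors nor a group without virus is described in the labels, so each difference below is between 2 vectors. The comparison asked how expression of arcA changed the liver transcriptome.

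Hepatocytes differ in what they make along the path of blood from the portal tract to the central vein. Endothelial cells of the central vein release Wnt ligands and R-spondin, which stabilise β-catenin in the nearest hepatocytes, and β-catenin together with T cell factors switches on the pericentral programme of glutamine synthesis and drug oxidation. Far from the vein, periportal hepatocytes carry out urea synthesis and gluconeogenesis. Cyp2e1, Cyp1a2, Slc1a2, Lhpp, Rgn and Avpr1a are expressed mainly near the central vein. Axin2, Lgr5, Tbx3 and Rnf43 are known as genes that Wnt signalling induces. These sets are not exclusive, because β-catenin also switches on the pericentral programme.

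Of the 10 genes, Cyp2e1 and Avpr1a rose in arcA livers, by 0.37 and 0.78 on the log2 scale, and the other 8 did not pass the test. Both are pericentral genes of hepatocytes. None of Axin2, Lgr5, Tbx3 and Rnf43, named above as genes that Wnt signalling induces, passed in either direction. The 2 rises among 10 genes stood beside 4.26% of all tested genes called higher, and the absence of falls stood beside 6.57% called lower (edgeR quasi-likelihood test, Benjamini-Hochberg adjusted p under 0.05 over all 14476 genes). The median log2 fold change of the 10 genes was 0.17, against 0.0091 over all genes tested and 0.18 over 18 hepatocyte genes listed without a zone. Whether those 18 genes differ between zones was not examined.

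The 2 genes that rose are shown with the sequence before their start, taken from RefSeq (GRCm38.p6, plus strand, 5′ to 3′), so that they can be read beside the letters to which T cell factors, the DNA-binding partners of β-catenin, are known to bind. RefSeq start sequences were found for Cyp2e1, Cyp1a2, Avpr1a, Axin2, Rnf43 and Slc1a2. Capitals mark a match to CTTTGAA, one of 4 forms of the T cell factor motif that were searched for; the others were CTTTGAT, then CTTTGTT, and finally CTTTGTA. The Cyp2e1 sequence (chr7:140763569-140763738) stops at the earliest start in GENCODE M21, and the Avpr1a sequence (chr10:122448249-122448498) ends at the base before its start.
Cyp2e1: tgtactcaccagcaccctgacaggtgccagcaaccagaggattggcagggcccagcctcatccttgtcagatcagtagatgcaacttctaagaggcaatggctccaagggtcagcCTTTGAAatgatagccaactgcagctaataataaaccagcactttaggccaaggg
Avpr1a: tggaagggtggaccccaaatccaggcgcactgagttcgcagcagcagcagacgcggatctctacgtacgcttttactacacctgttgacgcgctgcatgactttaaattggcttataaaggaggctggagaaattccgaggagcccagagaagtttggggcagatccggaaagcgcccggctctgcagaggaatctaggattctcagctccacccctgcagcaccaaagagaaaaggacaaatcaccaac

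On both strands of the 250 bases before the start, Avpr1a, Axin2 and Rnf43 (at both of its starts) held none of the 4 forms. Cyp2e1 and Cyp1a2 each held CTTTGAA once, a form present in 4.46% of 32851 mouse start sequences of that length. Slc1a2 held CTTTGAT once, on the minus strand, a form present in 3.21% of them, and the 30 bases around it (chr2:102706220-102706249, plus strand, capitals mark the match) lie in an intron of the GENCODE gene model because the RefSeq start is an internal one.
Slc1a2: agaagagggacATCAAAGgccccaaatggt

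The form CTTTGAA and the form CTTTGTA were added to the search after the sequences had been seen, and 14.8% of all start sequences hold at least 1 of the 4. The aryl hydrocarbon receptor core GCGTG, searched for because that receptor is known to induce Cyp1a2, was absent from the Cyp1a2 window and present once before the upstream start of Rnf43, beside 28.2% of all start sequences. A match is a string of letters and not a shown binding site. Avpr1a, the gene that rose most of the 10, had no match, and neither had Axin2, which Wnt signalling is known to induce. A missing match in these windows therefore does not decide whether T cell factors act on a gene. Their part in the rises was not tested.

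Cyp2e1 encodes the cytochrome P450 that oxidises ethanol, acetone and paracetamol (chromosome 7, 140763739 to 140774987, GRCm38, plus strand, protein coding). Its level, in CPM (counts scaled to library depth by the TMM method), ran from 3034 through a median of 3631 to 4465 in GFP livers. In arcA livers they ran from 4021 through a median of 4828 to 5548. Of the 8 arcA livers, 7 lay above the highest GFP liver, and arcA 8, the lowest, lay inside the GFP range. The mean went from 3720 ± 507 to 4802 ± 442 CPM (SD, n = 8 each), a log2 fold change of 0.37 (SE 0.0865, 95% interval 0.19 to 0.55, edgeR adjusted p = 0.00897). Cyp2e1 stayed past the threshold in all 16 fits that left out 1 library, with adjusted p up to 0.0249. With libraries scaled on hepatocyte markers, its log2 fold change was 0.16 and it did not pass (adjusted p = 0.115).

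Avpr1a encodes the V1a vasopressin receptor, which couples to calcium release and glycogen breakdown in hepatocytes (chromosome 10, 122448499 to 122453452, plus strand, protein coding). In GFP livers it ran from 3.82 through a median of 7.02 to 14.7 CPM. In arcA livers it ran from 11.95 through a median of 13.2 to 15.1 CPM. GFP 3, at 14.7 CPM, lay among the arcA livers and the other 7 GFP livers lay below all of them. The mean was 7.86 ± 3.62 CPM in GFP and 13.4 ± 1.32 CPM in arcA livers (SD, n = 8 each), a log2 fold change of 0.78 (SE 0.221, 95% interval 0.31 to 1.25, edgeR adjusted p = 0.0331). The call was close to the threshold: it held in 8 of the 16 fits without 1 library, and was lost without GFP 2, 5, 6 or 8 or arcA 1, 2, 3 or 4 (adjusted p from 0.051 to 0.0645), while the log2 fold change stayed between 0.68 and 0.96.

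Cyp1a2 encodes the cytochrome P450 that oxidises caffeine and aromatic amines (chromosome 9, 57676937 to 57683703, minus strand). GFP livers held 297 to 670 CPM with a median of 468, and arcA livers 494 to 652 CPM with a median of 553. All 8 arcA livers were above the GFP median, but GFP 3 was above all of them, and the log2 fold change of 0.27 (SE 0.138, 95% interval -0.020 to 0.56) did not pass (adjusted p = 0.237). Its known regulator Ahr, the aryl hydrocarbon receptor, had 27.9 ± 5.63 CPM in GFP and 28.8 ± 4.62 CPM in arcA livers, a log2 fold change of 0.046 (adjusted p = 0.866). Cyp1a1, the classical target of that receptor, had 2.95 ± 0.71 and 3.71 ± 0.769 CPM (log2 fold change 0.34, adjusted p = 0.183). Of 9 tested genes of the receptor and its targets, 0 passed with edgeR in either direction, and 3 had an unadjusted p under 0.05.

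Slc1a2 encodes the glutamate transporter GLT-1, which takes up glutamate in pericentral hepatocytes beside glutamine synthetase (chromosome 2, 102658659 to 102790784, plus strand). It ran from 70.1 through 100.0 to 170 CPM in GFP livers and from 107 through 134 to 170 CPM in arcA livers. GFP 5 lay just above arcA 7, both at 170 CPM after rounding, and 4 GFP livers (1, 2, 6 and 7) lay below every arcA liver. The log2 fold change was 0.30 (SE 0.188, 95% interval -0.095 to 0.70, adjusted p = 0.348). Glul, which encodes glutamine synthetase, had 682 ± 61.1 CPM in GFP and 599 ± 136 CPM in arcA livers (log2 fold change -0.19, adjusted p = 0.319), the opposite sign to Slc1a2. Oat, ornithine aminotransferase of the same zone, had 1804 ± 449 and 2232 ± 282 CPM (log2 fold change 0.31, adjusted p = 0.161). Among other genes of glutamate and glutamine handling, the hepatocyte amino acid transporter Slc38a4 rose by 0.26 (adjusted p = 0.0327, lost in 7 of the 16 fits without 1 library and with scaling on hepatocyte markers, where it was 0.058). The glutamine transporter Slc38a1 fell by 0.93 (adjusted p = 0.023), a call lost without GFP 2, 3 and 5 (adjusted p = 0.0861).

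Rgn encodes regucalcin, the gluconolactonase of vitamin C synthesis (chromosome X, 20549787 to 20562089, plus strand). It ran from 784 through 1047 to 1181 CPM in GFP livers and from 1007 through 1173 to 1257 CPM in arcA livers, with 4 arcA livers above every GFP liver. The log2 fold change was 0.20 (SE 0.0775, 95% interval 0.043 to 0.37), with an unadjusted p of 0.0156 and an adjusted p of 0.0985. Gulo, which performs the last step of the same pathway, had 362 ± 43.1 CPM in GFP and 331 ± 21.6 CPM in arcA livers (log2 fold change -0.13, adjusted p = 0.257). Of 7 tested genes listed for ascorbate synthesis, Gulo among them, 1 rose. This was the glucuronosyltransferase gene Ugt1a1, by 0.46 (adjusted p = 0.00401), and its part in ascorbate synthesis was not tested.

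Lhpp encodes a phosphatase of phosphohistidine and inorganic pyrophosphate (chromosome 7, 132610638 to 132706420, plus strand). It ran from 80.4 through 129 to 152 CPM in GFP livers and from 111 through 121 to 158 CPM in arcA livers. The groups overlapped almost fully, and the log2 fold change was -0.035 (SE 0.106, 95% interval -0.26 to 0.19, adjusted p = 0.887). Fgfr2 lies over Lhpp on the other strand, but the 2 genes share no exon bases in GENCODE M21.

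**Figure D1:**
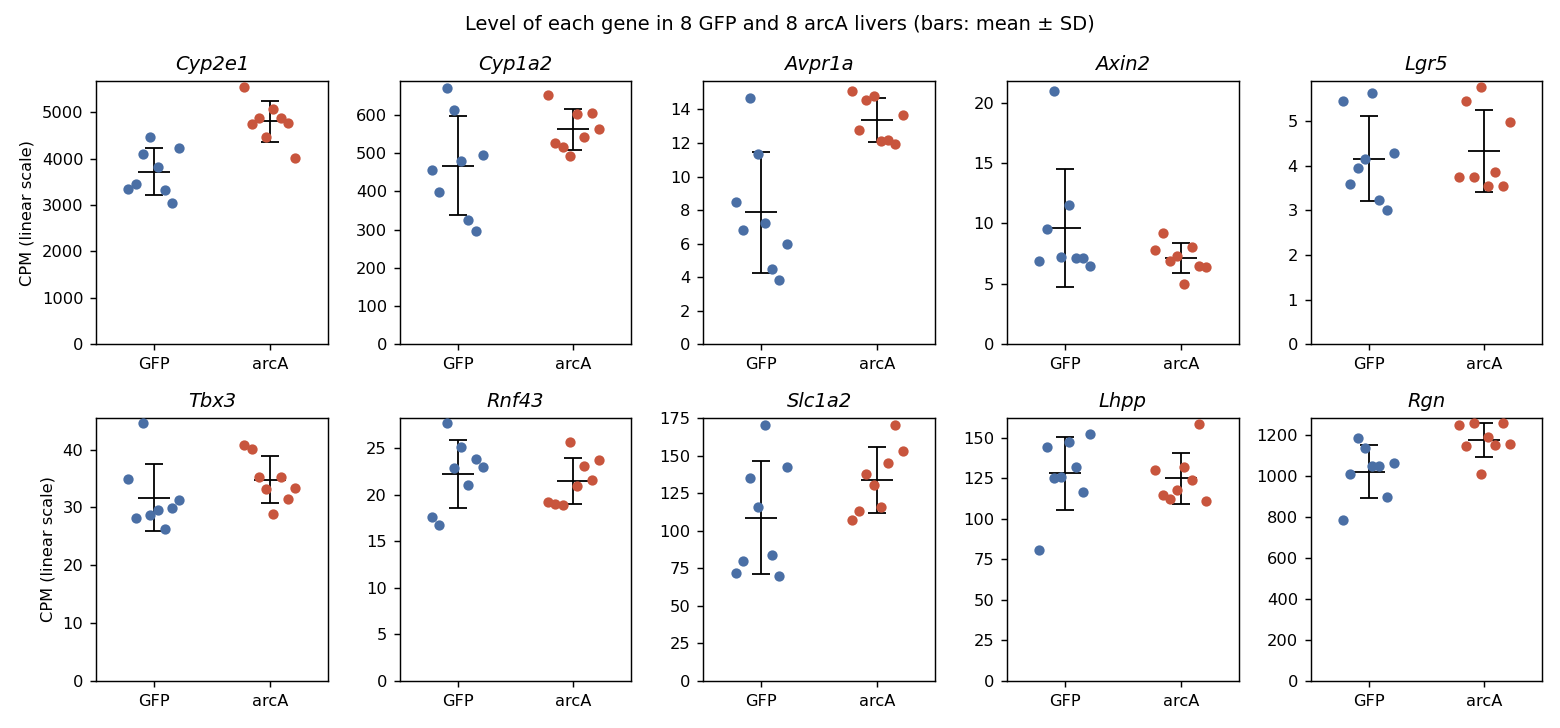
CPM (linear axis from 0) of the 10 genes in each of 8 GFP livers (blue) and 8 arcA livers (red), in order of replicate number from left to right, with mean and SD as black bars. In Cyp2e1, 7 arcA livers lie above the highest GFP liver, and in Avpr1a, 7 GFP livers lie below the lowest arcA liver. The groups overlap in Axin2, Lgr5, Tbx3 and Rnf43.

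The 4 genes Axin2, Lgr5, Tbx3 and Rnf43, named above as genes that Wnt signalling induces, showed no common direction. Axin2, the scaffold that returns β-catenin to degradation and a standard readout of the pathway (chromosome 11, 108920349 to 108950783, plus strand), ran from 6.49 through 7.20 to 21.0 CPM in GFP livers. In arcA livers it ran from 5.00 through 7.09 to 9.21 CPM, so the medians were nearly equal. GFP 3 alone was at 21.0 CPM, the next GFP liver was at 11.5 CPM, and 4 arcA livers lay on each side of the GFP median. The log2 fold change was -0.42 (SE 0.226, 95% interval -0.90 to 0.062, adjusted p = 0.273). It was -0.17 without GFP 3 and 0.023 without GFP 2, 3 and 5, and neither passed (adjusted p = 0.483 and 0.939).

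Lgr5 encodes the R-spondin receptor that marks hepatocytes next to the central vein (chromosome 10, 115450311 to 115587780, minus strand). It ran from 3.003 through 4.06 to 5.64 CPM in GFP livers and from 3.54 through 3.82 to 5.77 CPM in arcA livers. These values rest on 99 to 255 counts per library. The log2 fold change was 0.063 (SE 0.146, 95% interval -0.24 to 0.37, adjusted p = 0.848), so a change of either sign beyond that interval was not seen. Rnf43, a ubiquitin ligase that removes Wnt receptors from the cell surface (chromosome 11, 87662722 to 87735539, plus strand), ran from 16.8 through 22.9 to 27.7 CPM in GFP livers. In arcA livers it ran from 18.9 through 21.3 to 25.7 CPM, all inside the GFP range, with a log2 fold change of -0.046 (SE 0.0944, 95% interval -0.24 to 0.15, adjusted p = 0.826).

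Tbx3 encodes a T-box repressor induced by β-catenin in liver (chromosome 5, 119670669 to 119684724, plus strand). It ran from 26.3 through 29.8 to 44.6 CPM in GFP livers and from 28.8 through 34.3 to 40.8 CPM in arcA livers. Although 7 of 8 arcA livers were above the GFP median, GFP 3 was the highest of all, and the log2 fold change of 0.14 (SE 0.0953, 95% interval -0.063 to 0.34) did not pass (adjusted p = 0.413). Antisense genes overlap exons of Tbx3 (115 bases), Axin2 (209 bases) and Slc1a2 (189 bases), and the sources used here do not state whether counting used strand. The antisense lines held 158, 8 and 15 counts over all 16 libraries, against 21209, 5125 and 76583 for the genes themselves.

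**Figure D2:**
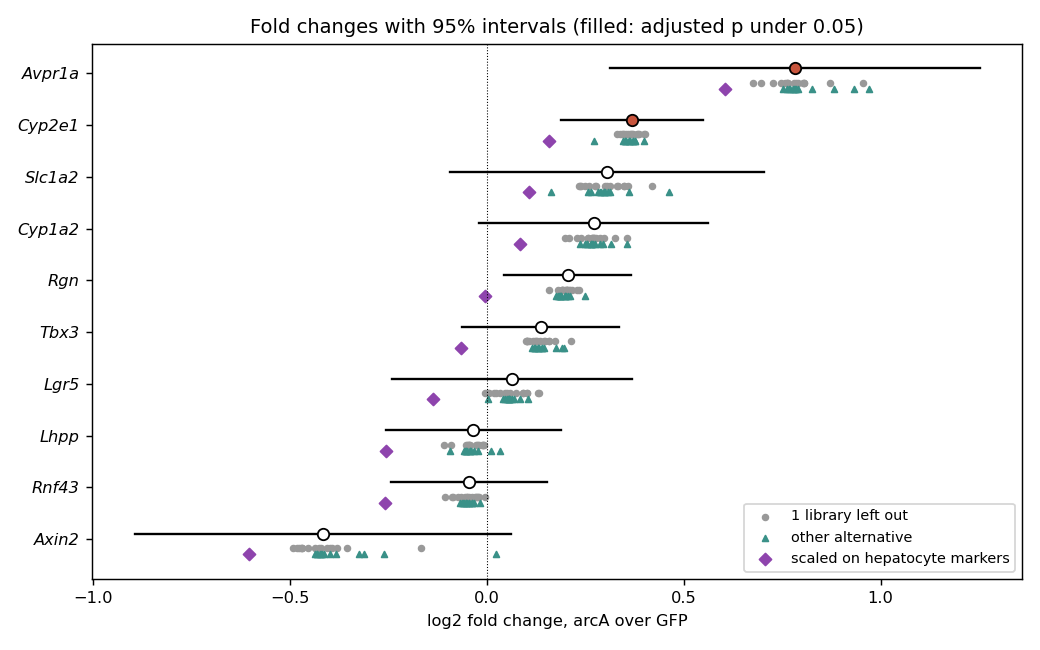
Log2 fold change (arcA over GFP) of each gene with its 95% interval (black line, filled point where the adjusted p was under 0.05), and below it the values with 1 library left out (grey), under other alternatives (green) and with scaling on hepatocyte markers (purple). Avpr1a (0.78) and Cyp2e1 (0.37) stand to the right, and Axin2 (-0.42) moves to -0.17 without GFP 3.

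Levels between genes were compared per kilobase of exon. Cyp2e1 was the highest in GFP livers, at 1724 ± 235 CPM per kilobase (SD, n = 8), followed by Rgn at 634 ± 79.1, Cyp1a2 at 232 ± 64.5 and Lhpp at 52.9 ± 9.42 CPM per kilobase. The ranges of neighbours among these genes did not overlap in either group. Slc1a2 (8.27 ± 2.87), Tbx3 (4.78 ± 0.875), Rnf43 (3.39 ± 0.561), Avpr1a (2.94 ± 1.36) and Axin2 (1.75 ± 0.888 CPM per kilobase) came next, and each overlapped the next in range in GFP livers. Lgr5 was the lowest, at 0.406 ± 0.0935 CPM per kilobase in GFP and 0.423 ± 0.0893 in arcA livers. In arcA livers the mean of Avpr1a, 5.02 ± 0.493 CPM per kilobase, was above that of Rnf43, 3.28 ± 0.38. In both groups the 3 enzymes with the highest levels led the order and Axin2 and Lgr5 closed it.

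**Figure D3:**
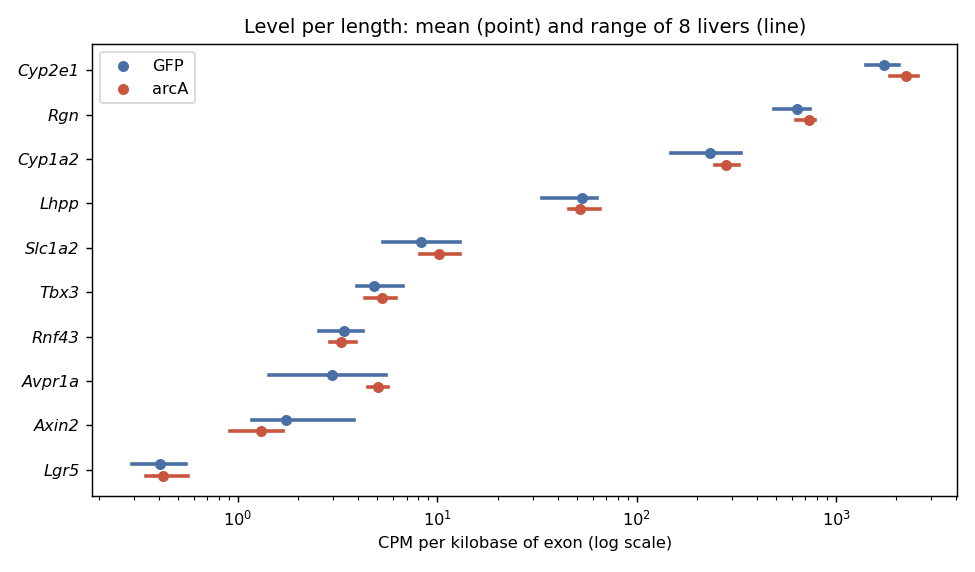
Level of each gene as CPM per kilobase of exon on a log axis, with the mean (point) and the range over 8 livers (line) of GFP (blue) and arcA (red). Means in GFP livers run from 0.406 for Lgr5 to 1724 for Cyp2e1, and the blue and red ranges overlap in every gene.

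The GFP livers spread more widely than the arcA livers in each of the 10 genes. For Avpr1a the SD of log2 CPM was 0.641 over GFP and 0.141 over arcA livers, for Cyp1a2 it was 0.409 and 0.136, and for Slc1a2 it was 0.497 and 0.234. The nearest to equal was Lgr5, with 0.322 and 0.289. Over all tested genes the GFP spread was the larger in 53.4%, and the median SDs were 0.204 and 0.191. Most named pericentral and periportal genes outside the 10 also had the larger SD of CPM over GFP livers. These were Oat (449 and 282), Gulo (43.1 and 21.6), Gstm3 (240.5 and 54.7), Ahr, Tuba8 and Lect2. Among periportal genes they were Cyp2f2 (182 and 155), Sfxn1 (14.0 and 4.15), Uroc1 and Gls2. The SD was smaller over GFP livers for Glul (61.1 and 136), Aldh1a1 (220 and 242) and periportal Ctsc (7.12 and 23.4). An SD of CPM also depends on the mean level, unlike the SD of log2 CPM given for the 10 genes. Without GFP 3 the GFP spread was larger in 9 of the 10 genes (all but Tbx3), beside 48.8% of all tested genes. Without GFP 7 it was larger in 10, beside 51.1%. Without GFP 2, 3 and 5 it was larger in 8 (all but Axin2 and Tbx3), beside 47.1%. The wider GFP spread of the 10 genes was noticed in these data and was not tested.

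**Figure D4:**
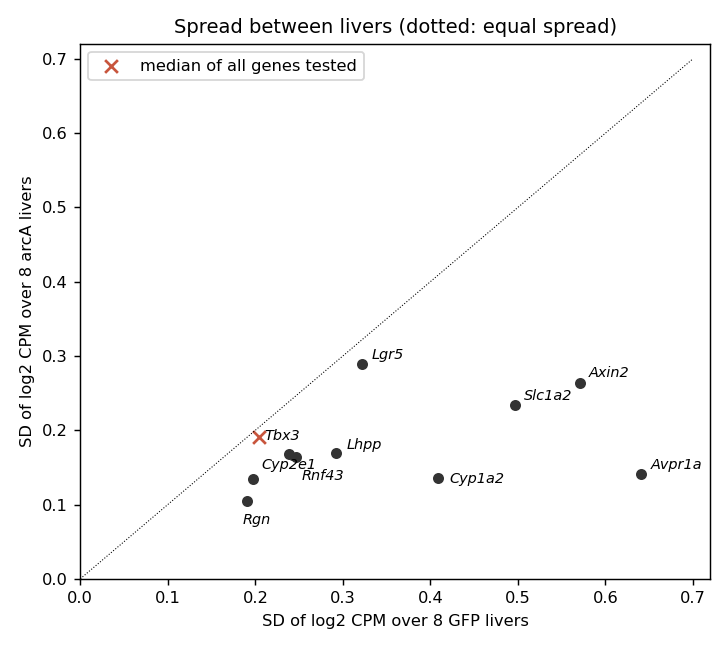
SD of log2 CPM over 8 GFP livers (x axis) and 8 arcA livers (y axis) for the 10 genes, with the median of all tested genes as a cross and equal spread as a dotted line. All 10 points lie below the line, with Avpr1a (0.641 and 0.141) farthest from it.

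GFP 3 held the highest GFP value of 6 of the 10 genes and GFP 7 the lowest of 5. GFP 3 is also one of 3 libraries, with GFP 2 and GFP 5, in which Gm42418, a gene model over ribosomal RNA sequence, took 11.8% to 19.4% of counts, against 2.29% to 7.37% in the other 13. The part of this in the values of GFP 3 was not tested. Without GFP 2, 3 and 5 Cyp2e1 and Avpr1a both passed, so the count of 2 rises and 0 falls was the same. The livers carried the defining hepatocyte gene Alb (albumin) at 60760 ± 3594 CPM in GFP and 68710 ± 8056 CPM in arcA libraries (SD, n = 8 each). Total counts ran from 28912563 to 53520828 in GFP and from 37325610 to 45874797 in arcA libraries.

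Within groups the genes were compared pair by pair, over 45 pairs in each group of 8 livers. Of these 90 relations, 8 had an unadjusted p under 0.05 and 0 passed after Benjamini-Hochberg adjustment, by Pearson or by Spearman (exact permutation tests, two-sided). The closest pair was Cyp1a2 with Avpr1a in GFP livers, with r = 0.939 (exact permutation p = 0.00184, adjusted 0.124) and rho = 0.833 (p = 0.0154, adjusted 0.461, n = 8). It was 0.847 without GFP 6 and GFP 7, the livers farthest from the median of Cyp1a2. Cyp2e1 with Cyp1a2 had r = 0.881 in GFP livers (exact permutation p = 0.00437, adjusted 0.124, rho = 0.905, p = 0.00456, adjusted 0.411), and 0.768 without GFP 4 and GFP 7. In arcA livers Lgr5 with Rgn had a negative relation, r = -0.808 (exact permutation p = 0.00464, adjusted 0.124, rho = -0.857, p = 0.0107, adjusted 0.461). It was -0.581 without arcA 2 and arcA 4. Axin2 with Tbx3 had r = 0.872 in arcA livers (exact permutation p = 0.00551, adjusted 0.124, rho = 0.738, p = 0.0458, adjusted 0.576), and 0.651 without arcA 2 and arcA 5. Of the 90 relations, 60 had a positive r. The 3 GFP libraries rich in Gm42418 and the other 5 were too few for values of their own.

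Beyond Cyp2e1 and Avpr1a none of the listed pericentral genes passed as higher with edgeR and TMM over all 16 libraries. Of 27 tested pericentral genes beyond the 10, 0 rose and 1 fell with edgeR (7 had an unadjusted p under 0.05), at a median log2 fold change of 0.088. The one that fell was Gstm3, a glutathione transferase with close paralogs, by 1.01 (SE 0.308, adjusted p = 0.0486). Its mean was 418 ± 241 CPM in GFP and 208 ± 54.7 CPM in arcA livers (SD, n = 8 each). GFP 7 held 958 CPM of Gstm3 and the call was lost without it (-0.72, adjusted p = 0.0869) and in 14 of the 16 fits without 1 library. Aldh1a1, a retinaldehyde dehydrogenase, had a log2 fold change of 0.20 (adjusted p = 0.0732), and Lect2, a secreted protein induced by β-catenin, of -0.18 (adjusted p = 0.102). Aldh1a1 did pass with DESeq2, with limma voom, without arcA 8 and without arcA 3 and 8.

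Of 24 tested genes of the opposite, periportal zone, 2 rose and 0 fell, at a median of 0.12: the serine transporter gene Sfxn1 rose by 0.36 (SE 0.0655, adjusted p = 0.00171), without overlap between the groups, and the histidine breakdown gene Uroc1 rose by 0.23 (adjusted p = 0.0451), a call that 12 of the 16 fits without 1 library lost. Both calls ended with scaling on hepatocyte markers, where Sfxn1 had a log2 fold change of 0.15 (adjusted p = 0.129) and Uroc1 of 0.012 (adjusted p = 0.913). The periportal cytochrome gene Cyp2f2 had 878 ± 182 CPM in GFP and 1057 ± 155 CPM in arcA livers (log2 fold change 0.27, adjusted p = 0.168). The ratio of Cyp2e1 to Cyp2f2 per kilobase was 4.08 ± 0.677 in GFP livers (2.57 to 4.69) and 4.33 ± 0.57 in arcA livers (3.49 to 5.19), and these ranges overlapped. The difference between the zones was not tested. Of the 18 hepatocyte genes listed without a zone, 5 rose, among them prothrombin (F2) by 0.29 (edgeR adjusted p = 0.00397). The call of F2 ended with scaling on this list itself (0.079, edgeR adjusted p = 0.403).

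Among receptors and core genes of the Wnt pathway, the calls were rises and few. Of 11 tested receptors 1 rose, Lgr4, an R-spondin receptor of hepatocytes, by 0.24 (adjusted p = 0.049). Of 22 core genes 2 rose, Ctnnb1, which encodes β-catenin, by 0.14 (adjusted p = 0.042) and Btrc, part of the ligase that marks β-catenin for degradation, by 0.24 (adjusted p = 0.0166). Ctnnb1 went from 133 ± 4.85 to 147 ± 7.9 CPM (SD, n = 8 each), with 8 of 8 arcA livers above the GFP median. The calls of Ctnnb1 and Lgr4 held in only 2 and 3 of the 16 fits without 1 library. Of the 14 other alternatives, Ctnnb1 passed in 4, Lgr4 in 6 and Btrc in 11. The calls of all of them ended with library size alone and with scaling on hepatocyte markers. Under the latter Ctnnb1 had a log2 fold change of -0.069 (edgeR adjusted p = 0.464).

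Wnt2, Wnt9b and Rspo3, the signals known from central vein endothelium, were low and did not pass. Wnt2 had 2.30 ± 0.41 CPM in GFP and 2.02 ± 0.747 CPM in arcA livers (log2 fold change -0.19, adjusted p = 0.614). Wnt9b had 1.06 ± 0.421 and 0.922 ± 0.473 CPM (-0.18, adjusted p = 0.779). Rspo3 had 6.19 ± 0.919 and 5.04 ± 1.42 CPM (-0.30, adjusted p = 0.223). Of the 12 ligand and secretion genes tested, Porcn, which adds the lipid that Wnt proteins need, rose by 0.68 (adjusted p = 0.0118), and Wls, their carrier to the cell surface, fell by 0.50 (adjusted p = 0.0347). The call of Wls was lost in 8 of the 16 fits without 1 library and with surrogate variables (adjusted p = 0.168), and that of Porcn with surrogate variables and without GFP 2, 3 and 5 (adjusted p up to 0.0686). In the same libraries, 2 of 21 markers of liver endothelium fell, beside 6.57% of all tested genes called lower. Plvap fell by 0.32 (edgeR adjusted p = 0.0162) and Lyve1 fell by 0.77 (edgeR adjusted p = 0.0173). The summed level of the list was 183 to 251 CPM in GFP and 155 to 216 CPM in arcA livers. Of these 21 markers, which include Wnt2, Wnt9b and Rspo3, 20 had a negative log2 fold change, at a median of -0.22. Over all tested genes 6908 of 14476 were negative, at a median of 0.0091. With surrogate variables Lyve1 had a log2 fold change of -0.44 and did not pass (adjusted p = 0.144). In whole liver, fewer cells of a type and less RNA per cell cannot be told apart.

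Of 8 tested inhibitors and feedback genes, 2 fell: Frzb, a secreted Wnt binder, by 0.94 (SE 0.158, adjusted p = 0.000782), with means of 2.60 ± 0.609 CPM in GFP and 1.36 ± 0.263 CPM in arcA livers and no overlap, and Dkk3, a secreted protein of the Dickkopf family, which fell by 0.94 (adjusted p = 0.0092). The call of Dkk3 was lost with surrogate variables (adjusted p = 0.0694). Feedback genes that β-catenin induces did not pass: Znrf3, the partner of Rnf43, had a log2 fold change of -0.072 (adjusted p = 0.82), Nkd1 of -0.24 (adjusted p = 0.273) and Notum of -0.15 (adjusted p = 0.356). With scaling on hepatocyte markers Nkd1 (-0.46, edgeR adjusted p = 0.0106) and Notum (-0.36, adjusted p = 0.00503) passed as lower. The median of all tested genes was -0.21 under that scaling. Markers of stellate cells, which make matrix, moved with Frzb and Dkk3: 8 of 13 fell, and their summed level was 300 to 396 CPM in GFP and 192 to 287 CPM in arcA livers. Their part in these falls was not tested.

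Of 12 other Wnt target genes 5 fell and 0 rose, at a median of -0.42. Ccnd1, which encodes cyclin D1, ran from 19.5 to 106 CPM in GFP livers, where GFP 7 held the 106 and the others at most 32.1 CPM. In arcA livers it ran from 3.24 to 9.46 CPM, below every GFP liver. It fell by 2.54 (SE 0.377, adjusted p = 0.000762), and the log2 fold change of Ccnd1 was -2.06 without GFP 7. Tnfrsf19, a receptor also called Troy, fell by 0.60 (adjusted p = 0.00379), and the hyaluronan receptor gene Cd44 fell by 0.998 (adjusted p = 0.00182). The transcription factor genes also passed: Myc fell by 1.17 (adjusted p = 0.0141) and Jun fell by 0.83 (adjusted p = 0.0162). The call of each of Ccnd1, Tnfrsf19, Cd44 and Myc held in all 16 fits without 1 library.

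Ccnd1, Cd44, Myc and Jun are expressed and regulated in many cell types and are not specific to Wnt signalling. Markers of immune cells were lower in the same livers. Of the T cell and natural killer markers, 10 of 10 that were tested fell. Their summed level was 10.8 to 24.4 CPM in GFP and 0.901 to 3.6 CPM in arcA livers. Of 13 macrophage and monocyte genes 8 fell, and their summed level was 160 to 257 CPM in GFP and 71.0 to 235 CPM in arcA livers. All 5 tested B and plasma cell genes fell as well, and no marker of these 3 lists was at 0 in every library. Their part in the lower Wnt target genes was not tested. Of 7 tested markers of bile duct cells 0 passed with edgeR, and 0 had an unadjusted p under 0.05.

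**Figure D5:**
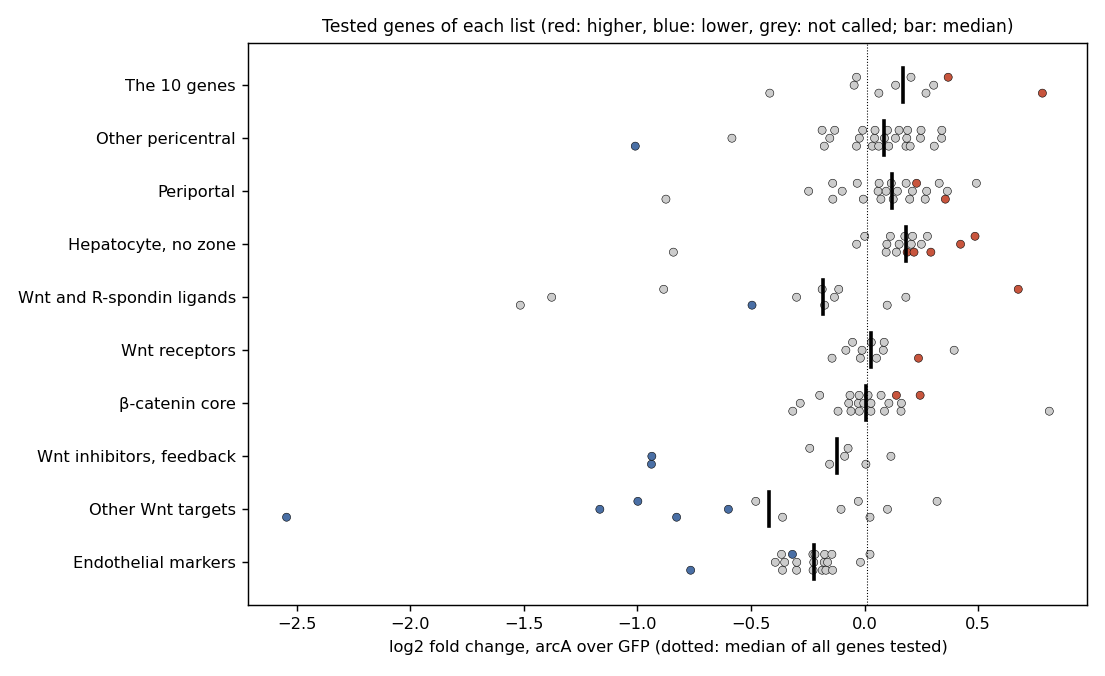
Log2 fold change (arcA over GFP) of every tested gene of 10 lists, coloured where the adjusted p was under 0.05 (red higher, blue lower), with the list median as a bar and the median of all tested genes as a dotted line. The bar of the 10 genes (0.17) lies near that of hepatocyte genes listed without a zone (0.18), and the other Wnt targets reach from Ccnd1 at -2.54 to Sp5 at 0.32.

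Scaling sets the zero of these values. When libraries were scaled on the 18 hepatocyte genes listed without a zone, the median of all tested genes moved from 0.0091 to -0.21. Avpr1a then rose by 0.60 (edgeR adjusted p = 0.0216) while Axin2 fell by 0.61 (edgeR adjusted p = 0.0346). Glul, Gulo, Lect2 and Rspo3, which did not pass with TMM, passed as lower with this scaling (edgeR adjusted p from 0.00174 to 0.014). Relative to the shifted median, Cyp2e1 stood at 0.37 under that scaling and at 0.36 under TMM, Avpr1a at 0.81 and 0.77, and Axin2 at -0.40 and -0.43. Of all calls, 39.3% were rises with TMM, 24.0% with library size alone and 1.39% with hepatocyte scaling. None of the 10 genes separated the groups without overlap, as 0.566% of all tested genes did upward and 1.2% downward.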

How the data were processed

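Liver RNA of 16 libraries was analysed, 8 per group, grouped by the labels' titles. The deposited table gives unnormalized counts by gene symbol. Per the submitters' processing notes, bcl2fastq, STAR 2.5.1a and featureCounts 1.4.6-p5 (Subread) were used with GRCm38. The sources used here do not give annotation release, strand setting or treatment of mates; of counts from 1 to 20, 69.8% were even. The labels do not say that each library is a separate mouse, so p-values measure the spread between these samples. Between libraries of a group the chi-square per gene was 18.5 to 464 (56 pairs), so each counted as 1 sample.

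Of 40757 lines, 348 exact copies were removed and counts of repeated symbols were summed. Genes passing filterByExpr were tested with edgeR 4.0.16 (R 4.3.3; TMM, robust quasi-likelihood F test, group as only term), with Benjamini-Hochberg adjustment and a threshold of 0.05; log2 CPM used a prior count of 2. Intervals are 95%, from the SE and the test's degrees of freedom. Exon lengths and coordinates came from GENCODE M21 (GRCm38), by symbol. On simulated counts for this comparison (14358 genes), 79.1% of genes changed 1.5-fold and 97% of those changed 2-fold were recovered, and 7 of 14158 unchanged genes were called. These counts were drawn independently for each gene, so livers that differ in many genes at once and shifts in cell composition were not simulated. The smallest change simulated was 1.5-fold and Cyp2e1 rose 1.29-fold, so the shares recovered do not cover a rise of that size.

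The 10 genes, the gene lists and the alternatives were chosen with earlier results of these data known. Named genes were the 10, up to 4 genes of each list with the smallest p, and Glul, Oat, Cyp2f2, Ctnnb1, Wnt2, Wnt9b, Rspo3, Lgr4, Znrf3, Cyp1a1, Ahr, Gulo and Alb; Jun and Sp5 were named after their values were seen. Other genes that the rule chose are not all printed, and some are not reported here. Alternatives were 4 other scalings, 2 other filters, DESeq2 1.42.0, limma 3.58.1 voom, sva 3.50.0, a replicate block, halved counts and each library left out; fits without GFP 2, 3 and 5, without arcA 3 and 8, and without Gm42418 and Lars2 were added after seeing the data.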

Additional observations from a re-analysis of the deposited data

Results flagged for a closer look

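In 20 groups of 8 livers (10 genes in each group), a lowest or highest liver was taken as standing apart where its gap to the next exceeded Dixon's 95% critical value as a share of the group's range in log2 CPM, which chance gives in about 1 of 20 groups. There were 2 such livers. GFP 1 was lowest for Lhpp, at 80.4 CPM against 117 to 152 CPM in the other 7 GFP livers (gap 0.585 of the range). Likewise, arcA 4 was lowest for Rgn, at 1007 CPM against 1144 to 1257 CPM in the other 7 arcA livers (gap 0.577 of the range). Leaving out either liver did not bring its gene past the threshold.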

How the results depend on the processing

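Over 30 alternatives, 288 of 300 fold changes of the 10 genes kept their side of the threshold; the exceptions were Avpr1a (10 lost calls), Cyp2e1 (1 lost) and Axin2 (1 gained, with hepatocyte scaling). The 2 rises among the 10 became 1 with no filter on low counts and 1 without arcA 3 and 8, both by loss of Avpr1a; with hepatocyte scaling there were 1 rise and 1 fall. Leaving out 1 library gave 1 to 2 rises and 0 falls. Over all genes, 617 rises became 253 with library size alone, 61 with hepatocyte scaling (and 951 falls became 4341), 407 with a filter of 1 CPM in 8 libraries and 369 without GFP 2, 3 and 5, and 389 to 638 rises and 731 to 1046 falls were found without 1 library. Hepatocyte scaling turned Ctnnb1 to -0.069. The stricter filter tests fewer genes; otherwise the cause was not tested. Same-numbered livers of the 2 groups correlated at -0.0473 to 0.134, and 3 of 16 libraries correlated best with their own number, so numbers were not taken to pair livers; the replicate block gave 592 rises and 876 falls, with 2 rises and 0 falls among the 10 genes. Levels per kilobase moved by less than 1 SD with library size alone, and 0 relations passed by Pearson under TMM or library size alone.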
